A study of Mus musculus with 4 samples.

Results

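The CpG-rich promoters of 3T3-L1 cells that had no accessible site were examined. A protein-coding gene on chromosomes 1 to 19 was included when its most upstream start site had an observed over expected CpG ratio of at least 0.6 in the 1000 bp centred on it, and when no peak of either deposited list lay within 1 kb of any of its start sites. The rule was met by 1,306 genes, which were 13.2% of the 9,908 genes with a CpG-rich promoter and 6.31% of all 20,698 genes. The genes were chosen by the peaks and the CpG ratio, so values of either are given as descriptions, with no test.

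3T3-L1 is an immortalised line of mouse embryo fibroblasts that can be turned into fat cells, and the labels give its strain as C57BL/6J and name no treatment. The assay was DNase-seq, which sequences the fragment ends that the nuclease DNase I leaves where it reaches DNA not wrapped tightly in chromatin. The 4 libraries came from 2 biosamples, biosample 1 with technical replicates 1 and 3 and biosample 2 with technical replicates 1 and 2, and each biosample had 1 list of peaks (150-bp windows with a score) and 1 list of hotspots (wider regions of enriched cleavage), both from its pooled libraries. The biosample 1 list held 298,793 peaks and the biosample 2 list 97,430, and read depth was unknown, so list length, depth and biology cannot be told apart. Scores are the authors' own and were read only within a list, where the medians were 65 and 33. All 11 fibroblast and preadipocyte markers examined had a promoter peak in both lists, and no marker of the 3 epithelial, 3 blood and 3 endothelial ones had a promoter peak in either. Of 3 neuronal markers 1 had a promoter peak in biosample 1 and none in biosample 2. Cdh1, Kdr, Sox17, Neurod1 and Elavl4 of these were in the list of 1,306 genes.

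Most CpG dinucleotides of mammalian DNA carry a methyl group and are lost over time, and CpG islands are the stretches at which they persist, mainly at promoters. Island promoters of genes used in every cell are usually free of nucleosomes and methylation, while the islands of developmental regulators are known in many cell types to be held silent by Polycomb complexes, and those of a set of germ-line genes by DNA methylation. Neither mark was measured here.

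The sequences around 3 of the start sites show what CpG richness looks like at promoters of the gene classes described below. They are the 250 bases before and the first 30 bases of the most upstream start site, read 5′ to 3′ on the gene's strand from GRCm38.p6, whose chromosomes are those of mm10, with each CG in capitals. Barhl2 (chr5:106458137-106458416, minus strand) encodes a homeobox factor of neurons, Boll (chr1:55363440-55363719, minus strand) an RNA-binding protein of the germ line, and Kcnmb4 (chr10:116473849-116474128, minus strand) an accessory subunit of a calcium-activated potassium channel.
Barhl2: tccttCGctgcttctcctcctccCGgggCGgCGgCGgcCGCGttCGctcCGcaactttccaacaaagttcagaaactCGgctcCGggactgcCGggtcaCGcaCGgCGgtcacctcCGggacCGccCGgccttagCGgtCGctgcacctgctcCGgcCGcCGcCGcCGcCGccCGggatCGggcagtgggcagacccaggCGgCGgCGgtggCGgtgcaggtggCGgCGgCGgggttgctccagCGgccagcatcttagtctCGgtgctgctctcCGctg
Boll: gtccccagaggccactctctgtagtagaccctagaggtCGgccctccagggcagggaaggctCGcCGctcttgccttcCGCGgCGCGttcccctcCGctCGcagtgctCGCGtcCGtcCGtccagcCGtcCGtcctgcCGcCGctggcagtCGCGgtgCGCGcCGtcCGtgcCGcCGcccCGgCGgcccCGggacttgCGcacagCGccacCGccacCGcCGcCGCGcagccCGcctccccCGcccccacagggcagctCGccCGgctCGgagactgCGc
Kcnmb4: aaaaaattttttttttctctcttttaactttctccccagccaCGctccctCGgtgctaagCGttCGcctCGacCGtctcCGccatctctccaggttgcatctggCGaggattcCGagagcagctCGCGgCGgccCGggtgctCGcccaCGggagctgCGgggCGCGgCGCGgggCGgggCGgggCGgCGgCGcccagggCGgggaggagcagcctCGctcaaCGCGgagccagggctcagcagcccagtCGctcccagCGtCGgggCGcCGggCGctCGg

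The 280 bases held 38 CG in Barhl2, 41 in Boll and 36 in Kcnmb4. Every 31-base word of the 1000 bp around these 3 start sites occurred once in the genome, so reads could be placed there. Barhl2, at a CpG ratio of 1.07, had its nearest peak 3,870 bp from the start site in both lists, and Boll, at 0.906, had it at 13,156 and 13,136 bp. For Kcnmb4 the nearest peaks lay at 2,778 and 48,693 bp, and for Nptx2, which encodes a pentraxin secreted at synapses, at 2,997 and 92,894 bp. Barhl2 and Boll thus had the nearest peak at about the same distance in both lists, and Kcnmb4 and Nptx2 had a near site in the longer list alone.

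The share of promoters without a peak fell as the CpG ratio rose, and it did not reach 0. It was 83.1% of genes with a ratio under 0.1 and 25.3% at 0.5 to 0.6. At 0.6 to 0.65 it was 23.8% (95% Wilson interval 21.3 to 26.4, counting error only). It was 13.9% at 0.7 to 0.75 and 9.36% at 0.85 to 0.9. At a ratio of 1 or more, 30 of 406 genes (7.39%) had no peak. Among CpG-poor genes as a whole, 6,133 of 10,790 (56.8%) had none, and among all genes 35.9%. The shares on either side of the threshold of 0.6 were close. Just above it lay Lrrc3b, P2rx2, Mbp, Rxfp2 and Ly6k, and just below it, also without a peak, genes such as Gm13290, Oxct2a, Mycbpap and Grin2a, all with ratios that round to 0.60 (0.599 to 0.601).

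**Figure D1:**
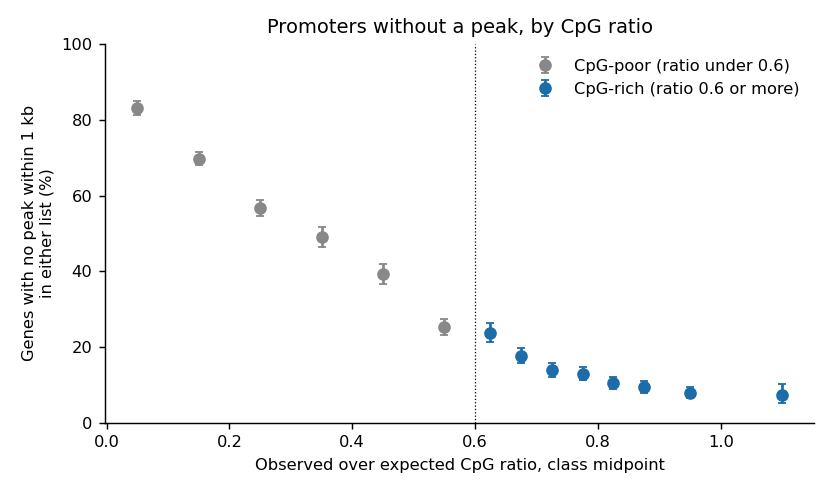
Share of protein-coding genes with no peak within 1 kb of any start site in either list (y axis, %) against the class of the observed over expected CpG ratio at the most upstream start site (x axis, midpoint, the last class drawn up to 1.2). Bars are 95% Wilson intervals for counting error, and the dotted line marks 0.6. The share falls from 83.1% to 7.39%, with 25.3% and 23.8% on either side of the line.

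The closed promoters had somewhat lower CpG ratios than the open ones, with much overlap. The median CpG ratio was 0.740 in the 1,306 genes and 0.792 in the 7,974 CpG-rich genes with a peak in both lists, the median number of CG in the 1000 bp was 71 and 72, and the median GC content was 62.7% and 60.8%. The continuous CpG-rich stretch at the start site was 745 bp long at the median, against 810 bp, and it reached 1000 bp in 27.1% of the closed promoters and 29.6% of the open ones. A ratio of at least 0.75 was found in 46.3% of the closed promoters and 63.5% of the open ones, and no CpG-rich stretch at the start site in 4.82% and 1.82%. The longest stretch of all 1,306 genes, 2,930 bp, lay at Prdm16, a zinc-finger regulator that directs brown fat and other fates, whose nearest peaks were 24,563 and 62,543 bp away. Adcy5, an adenylyl cyclase gene, had 2,820 bp and Cdkn1c, an imprinted inhibitor of the cell cycle, 2,740 bp.

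The 10 highest ratios among the 1,306 genes were at Pde8a (1.14), Chd7 (1.13), Klf14 (1.12), Fign (1.10), Dock8 (1.08), Bves (1.08), Bmp2 (1.08), Barhl2 (1.07), Cdyl2 (1.05) and Paqr9 (1.05). They do not form 1 family: Pde8a degrades cyclic AMP, Chd7 remodels chromatin, Klf14 is a maternally expressed zinc-finger factor that is known to act in fat, and Bmp2 is a secreted signal of bone and fat precursors. For Klf14 the nearest peaks lay at 11,853 bp (score 53) and 12,713 bp (score 23), and for Bmp2 at 1,754 bp in both lists (99 and 25). Bmp2 thus had a site shared by both lists just outside its promoter, while Klf14 had none within 10 kb in either.

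Regulators of development were the largest of the 3 groups of related classes. Of the 259 CpG-rich genes of developmental transcription factors, 157 (60.6%, 54.6 to 66.4) had no peak, beside 13.2% of all CpG-rich genes. The homeobox genes, whose proteins lay out the body and the nervous system, had 82 of 125 (65.6%, 56.9 to 73.4), the SOX genes 10 of 14, the T-box genes 6 of 9 and the bHLH genes 17 of 28. Forkhead genes had 11 of 31 (35.5%), with 16 open in both lists. At a CpG ratio of at least 0.75 their share was 20.8%, beside 605 of all 6,007 CpG-rich genes at that ratio. Of the 10 CpG-rich Nkx genes 9 had no peak and 1 had a peak in biosample 1 alone. In contrast, 4 of the 6 CpG-rich Irx genes (Irx1, Irx2, Irx3 and Irx5) were open in both lists.

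Within the Hox clusters, which set position along the body axis, 11 of 25 CpG-rich genes had no peak, 6 had a peak in both lists and 8 in biosample 1 alone. The 11 were Hoxa11, Hoxa13, Hoxb7, Hoxb8, Hoxb9, Hoxc8, Hoxc9, Hoxc12, Hoxd1, Hoxd11 and Hoxd13. Those open in both lists included Hoxa2, Hoxa3, Hoxa5, Hoxa7 and Hoxc13. Hoxa13, of the distal limb and hindgut, had its nearest peak 3,577 bp away in both lists, with scores of 111 and 39. Hoxd11 had a peak at 4,093 bp in both lists (111 and 43), and Hoxb9 had peaks at 1,252 bp (36) and 7,373 bp (47). The HoxA cluster thus held open genes as well as the closed Hoxa11 and Hoxa13, and no HoxB or HoxD gene with a CpG-rich promoter was open in both lists.

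Master regulators of unrelated lineages were found side by side in the list. Sox2, a factor of pluripotent and neural stem cells, had its nearest peaks at 2,400 and 64,980 bp, and Sox1, of the neural plate, at 21,901 and 21,881 bp. Neurog2, which starts neuronal differentiation, had peaks close by at 1,101 and 1,081 bp, with scores of 70 and 19. Tbx21, the T helper cell factor, had them at 8,065 bp in both lists, and T (brachyury), of the early mesoderm, at 1,998 and 10,818 bp. Foxd3 of the neural crest had peaks at 4,797 and 5,177 bp. Tal1, of blood and endothelium, had them at 8,441 and 17,921 bp. No common distance to the nearest site was seen, since the homeobox genes alone ranged from 1,015 to 41,294 bp in biosample 1, with a median of 4,454.5 bp.

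Genes for neuronal communication were closed in like proportion. Of 86 CpG-rich ion channel genes 54 (62.8%, 52.2 to 72.3) had no peak, and of the 197 CpG-rich genes of neuronal signalling, which include these channels, 114 (57.9%, 50.9 to 64.5). The potassium channels stood highest of the classes with at least 10 CpG-rich genes, with 29 of 38 (76.3%, 60.8 to 87.0), 2 open in both lists and 7 in biosample 1 alone. With a window of 2000 bp their share was 50% (34.8 to 65.2), below the 71.4% of the SOX genes and the 56.8% of the homeobox genes. Of all 9,908 CpG-rich genes 1,048 had no peak with that window. All 9 CpG-rich genes of the voltage-gated Kcna, Kcnb, Kcnc and Kcnd families had no peak (among them Kcna1, Kcna3, Kcnb2, Kcnc1, Kcnc4, Kcnd2 and Kcnd3), and so did 7 of the 8 CpG-rich Kcnk genes, whose tandem-pore channels set the resting potential. Sodium, calcium and HCN channel genes had 9 of 24 (37.5%). With the biosample 2 list alone they had 62.5%, beside 19.5% of all CpG-rich genes. Among these channel genes Hcn4, the pacemaker channel of the heart, had its nearest peaks at 18,384 bp (98) and 18,404 bp (20). Cacna1a, a presynaptic calcium channel, had them at 7,479 bp (43) and 10,459 bp (16).

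Of the ligand-gated channels 16 of 24 had no peak. Grin1, the subunit that every NMDA receptor needs, had its nearest peaks at 7,749 bp (61) and 9,389 bp (25). Grik3, a kainate receptor subunit, had a peak at 8,535 bp in biosample 1 and none nearer than 201,235 bp in biosample 2. Of the 6 CpG-rich genes of the GABA-A receptor family 5 were closed (Gabra2, Gabra4, Gabra5, Gabrb1 and Gabrg3). Of the genes of synapses and secretory vesicles, 43 of 79 (54.4%) were closed, among them Gad2, which makes GABA, with peaks at 3,771 and 31,740 bp, and Slc32a1, which loads it into vesicles, with peaks at 2,869 and 14,029 bp. Receptors for transmitters and peptides had 14 of 26 (53.8%, and 30.8% with a window of 2000 bp), clustered protocadherins 12 of 21 and the other cadherins 12 of 24. Orphan G-protein-coupled receptors had 5 of 24 (20.8%, 9.24 to 40.5), an interval that includes the 13.2% of all CpG-rich genes.

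Secreted signals of the WNT, BMP, FGF and related families had 23 of 44 closed. Among the Wnt genes 8 of 13 had no peak (Wnt2, Wnt2b, Wnt3, Wnt3a, Wnt4, Wnt6, Wnt9b and Wnt10b) and 4 were open in both lists (Wnt5a, Wnt7a, Wnt9a and Wnt11). Wnt10b, a signal known to hold preadipocytes back from becoming fat cells, had its nearest peaks at 2,086 bp (score 132) and 2,126 bp (46), and Wnt6 at 1,304 bp in both lists (126 and 40). Of the BMP and GDF ligands 7 of 9 were closed (Bmp2, Bmp6, Bmp7, Bmp8a, Bmp8b, Gdf7 and Gdf10). These promoters thus lacked a site of their own while a high-scoring site lay close by in some of them.

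The germ-line genes had 27 of 61 without a peak (44.3%, 32.5 to 56.7) and 29 open in both lists. The 27 included Sycp1, Sycp2 and Sycp3 of the synaptonemal complex that joins paired chromosomes in meiosis, Dmc1 and Spo11 of meiotic recombination, Ddx4, the RNA helicase of germ cells, and Mael, Asz1, Tdrd1, Tdrd5 and Tdrd6, which act in the silencing of transposons by small RNAs. Sycp3 had its nearest peaks at 7,304 bp (117) and 7,324 bp (41), Ddx4 at 5,576 bp (33) and 8,141 bp (63), and Dmc1 at 1,728 bp (43) and 2,748 bp (16). The closed germ-line genes had lower CpG ratios than the open ones, with medians of 0.697 and 0.828. With a ratio of at least 0.75 the share without a peak was 21.4% (10.2 to 39.5) of 28 genes. Of all 6,007 CpG-rich genes at that ratio 605 had no peak, a share that lies just below the germ-line interval.

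The remaining classes lay on both sides of the 13.2% of all CpG-rich genes. Of 242 CpG-rich genes of the ribosome, proteasome and respiratory chain, 1 had no peak (0.413%), and it was Rpl10l, a copy of a ribosomal protein gene used in the testis. C2H2 zinc finger genes had 17 of 216 (7.87%), cilium and axoneme genes 6 of 45 (13.3%), histone genes 9 of 73 (12.3%), and cytokines, chemokines and their receptors 6 of 30. Above it, with intervals that exclude 13.2%, were solute carriers with 41 of 166 (24.7%, 18.8 to 31.8), predicted or clone-named genes with 101 of 366 (27.6%, 23.3 to 32.4) and imprinted genes with 11 of 28 (39.3%, 23.6 to 57.6). The keratin genes had no CpG-rich promoter among 106, and the 1,467 chemosensory receptor genes had 1. In all, 530 of the 1,306 genes fell in a class, 12 of them in several, and 776 in none. The classes were chosen with earlier results of these data known, so their shares describe these lists and carry no p-value.

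**Figure D2:**
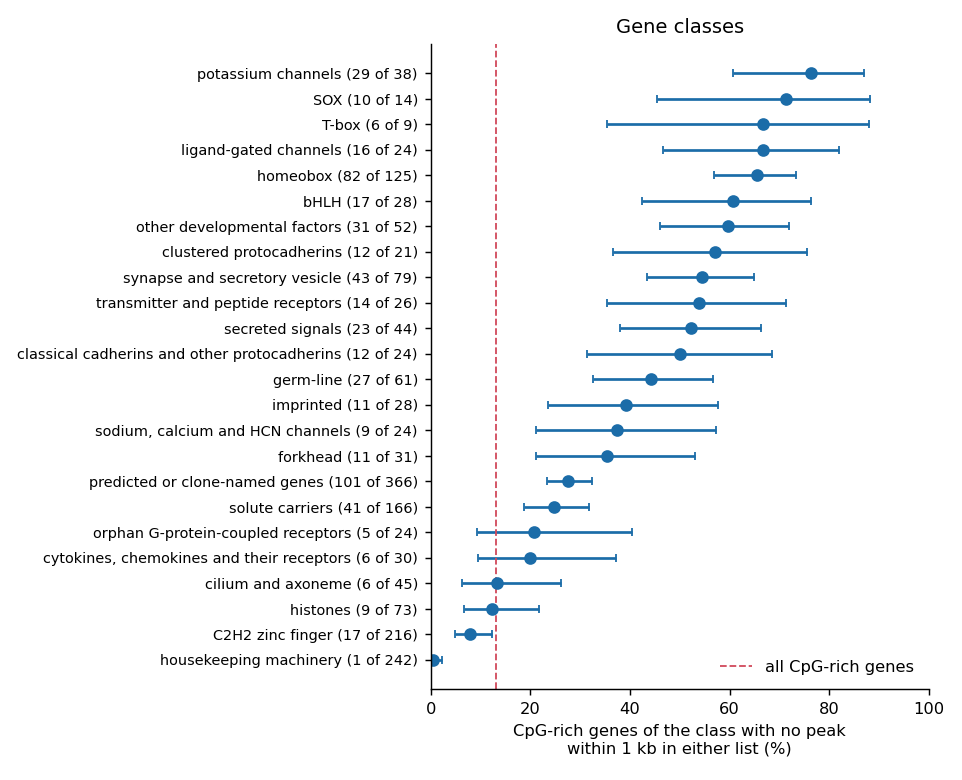
Share of the CpG-rich genes of each class with no peak within 1 kb of a start site in either list (x axis, %), for classes with at least 9 CpG-rich genes, with the counts beside the names. Bars are 95% Wilson intervals for counting error, and the dashed line is the 13.2% of all CpG-rich genes. Potassium channels (76.3%) and SOX genes (71.4%) lie highest, and the ribosome, proteasome and respiratory chain genes lowest (0.413%).

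Several genes with a role in fat, bone or cartilage were also in the list, named here after their values were seen. Genes of these tissues were not counted as a class, so no share is given. The 11 fibroblast and preadipocyte markers examined all had a promoter peak in both lists. Cidea, a lipid droplet protein of brown fat, had its nearest peaks at 1,559 bp (46) and 17,952 bp (34). Ppara, the receptor that drives fatty acid oxidation, had them at 17,579 bp (62) and 19,279 bp (49), and Mgll, which ends the breakdown of stored triglyceride, at 21,267 bp (54) and 21,548 bp (45). Adrb1, which encodes a beta-adrenergic receptor that triggers lipolysis, had them at 12,117 and 13,154 bp. Mlxipl, a glucose-responsive factor, had a peak 1,045 bp away in biosample 1. Alpl, a phosphatase of bone-forming cells, had high-scoring peaks just outside the window, at 1,266 bp (124) and 1,286 bp (48). The cartilage genes Acan and Col2a1 had peaks at 5,193 and 2,972 bp in biosample 1 and at 14,913 and 11,532 bp in biosample 2. Peaks inside the gene were present at each of Cidea, Ppara, Mgll and Mlxipl in biosample 1, with 7, 4, 22 and 13.

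The hotspot lists gave almost the same picture as the peaks, but they come from the same reads and are no independent check. All 7,974 CpG-rich genes with a peak in both lists also had a biosample 1 hotspot within 1 kb. A hotspot of biosample 1 came within 1 kb of a start site in 27 of the 1,306 genes (2.07%), and one of biosample 2 in 3 (0.230%), against 87.1% and 80.6% of all CpG-rich genes. Of CpG-poor genes without a peak the shares were 1.65% and 0.326%. None of the 27 hotspots reached the start site, and their nearest edges lay 526 to 993 bp from it. The 3 genes with hotspots in both lists were Slc26a8, an anion transporter of sperm, Vstm2l, and Zfp503, a zinc-finger repressor. Zfp503 had hotspots 526 and 984 bp away and peaks at 1,096 bp in both lists (124 and 46), and Vstm2l had hotspots at 800 and 943 bp and peaks at 1,088 bp (117 and 47). Of the 27 hotspots 26 had the highest −log10 q that the list holds, 100. That value is a cap, and the share of all biosample 1 hotspots at it was not counted, so these 27 are not set apart by it.

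The nearest peaks were mostly some kilobases away. The distance from the closest start site of a gene to the closest edge of a peak had a median of 4,294 bp (quartiles 2,361 and 9,014) in biosample 1 and 10,945 bp (4,785 and 25,607) in biosample 2. The CpG-poor genes without a peak were farther from one, with medians of 7,189 and 18,140 bp. Within 2 kb lay a peak of biosample 1 for 258 genes (19.8%) and of biosample 2 for 86 (6.58%), within 10 kb for 1,028 (78.7%) and 614 (47.0%), and within 100 kb for 1,282 (98.2%) and 1,212 (92.8%). The shorter list alone makes the second value of each pair lower, and its part was not tested. Just outside the window, at 1,002 to 1,015 bp in biosample 1, lay the peaks of Prr23a3, Rhbdl3, Oxtr, Slc35f3 and Hoxd1. Just inside it, at 979 to 1,000 bp, lay peaks of CpG-rich genes that were thereby kept out, among them Slc5a5, Otud7a, Dact2 and Disp3.

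**Figure D3:**
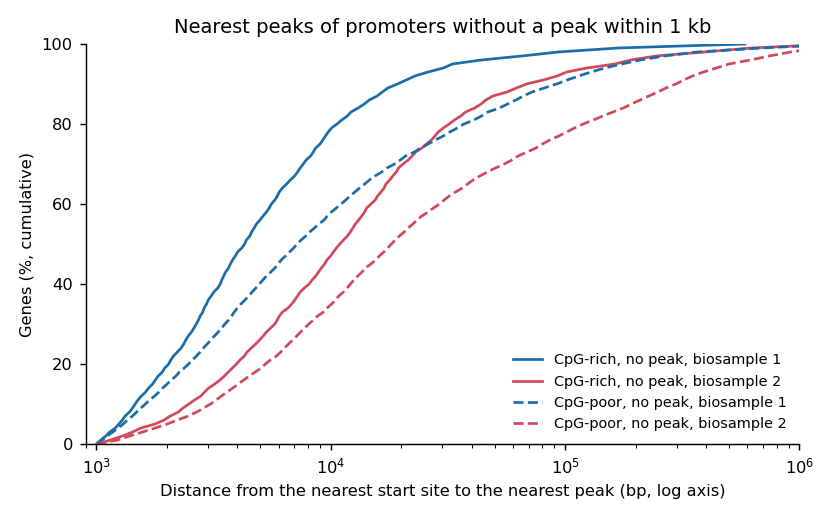
Cumulative share of genes (y axis, %) by the distance from the closest start site to the nearest peak (x axis, bp, log axis) in each list, for the 1,306 CpG-rich genes without a peak within 1 kb (solid) and the 6,133 CpG-poor ones (dashed). The CpG-rich curves lie to the left of the CpG-poor ones in both lists, with medians of 4,294 and 7,189 bp in biosample 1 and 10,945 and 18,140 bp in biosample 2.

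The nearest peak was about as often downstream as upstream. It lay on the downstream side in 657 genes (50.3%) for biosample 1 and 653 for biosample 2, and inside the gene in 516 (39.5%) and 433 (33.2%). In 339 genes (26.0%) the nearest peaks of both lists overlapped and were thus the same site. Over all 1,306 genes the nearest peaks ranked low: 474 (36.3%) in biosample 1 and 451 (34.5%) in biosample 2 were in the upper 50% by score of their list. For CpG-poor genes without a peak it was 30.8% and 32.9%, so a low rank was not particular to the CpG-rich ones. High scores occurred all the same. At Creld1 the nearest peaks, 2,052 and 2,032 bp away, had scores of 147 and 89, at Plxdc1 (1,232 and 1,252 bp) they had 146 and 75, and at Trp73 (2,048 bp in both) 140 and 51. Slc2a3, a glucose transporter gene, had peaks 2,037 bp away in both lists with scores of 123 and 41.

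The number of accessible sites in the wider surroundings was intermediate. Between 5 and 100 kb from the most upstream start site lay a median of 27 peaks of biosample 1 and 9 of biosample 2, against 38 and 13 for CpG-rich genes open in both lists and 19 and 6 for CpG-poor genes without a peak. From 3 to 20 kb upstream, 7.68 peak centres per 100 genes and 500-bp bin were found in biosample 1 and 2.50 in biosample 2, and on the downstream side 6.33 and 2.00. The values were 10.7 and 3.55 upstream and 10.6 and 3.06 downstream at the open CpG-rich genes. Any further start sites of a gene lie downstream of the most upstream one, and the rule clears 1 kb around each of them. The lower downstream values are thus tied to the rule, and its part was not tested. No peak lay anywhere in the gene body in 400 of the 1,306 genes (30.6%) in biosample 1 and in 611 (46.8%) in biosample 2. At the other end stood long genes, such as Dlgap2 of the synapse with 133 and 42 peaks in its body and Adgrl3, a latrophilin, with 110 and 30.

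**Figure D4:**
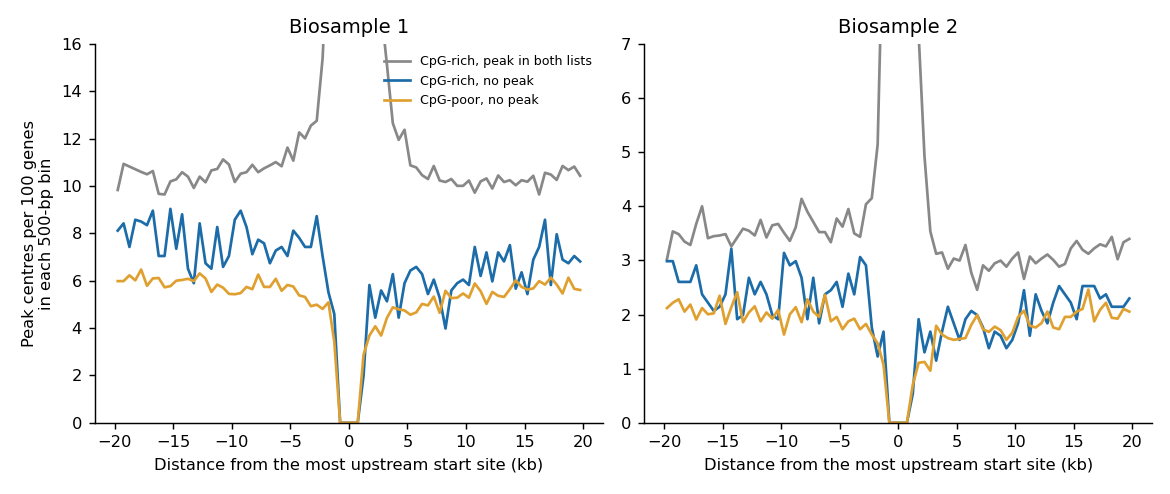
Peak centres per 100 genes in 500-bp bins (y axis) by distance from the most upstream start site in the direction of the gene (x axis, kb), for biosample 1 (left) and biosample 2 (right). The y axes differ and end below the central maximum of the open CpG-rich genes (grey), which reached 93.5 and 88.3 per 100 genes and bin. The gap around 0 in the other curves is set by the rule, which also clears 1 kb around any start sites farther downstream. Beyond 3 kb the CpG-rich genes without a peak (blue) average 7.68 upstream and 6.33 downstream in biosample 1.

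The genes farthest from any peak in both lists were not typical of the rest. All 10 of them, led by Gm10409 with peaks 586,402 and 880,562 bp away, lay in sequence that occurs more than once in the genome, with 0 to 27.9% of the 31-base words of the promoter found once. Reads from such copies cannot be placed uniquely, and the part of this in the missing peaks was not tested. Of the 9,220 CpG-rich promoters with at least 90% unique words 1,179 (12.8%) had no peak, and of the 130 with under 50% it was 73 (56.2%, 47.6 to 64.4). Those 73 were 5.59% of the 1,306 genes, and the open CpG-rich genes had 0.477%. Of the 9 histone genes 8 had under 90% unique words, among them Hist1h2ap (0%), and so did 54 of the 101 predicted or clone-named genes. The same held for 6 of the 12 clustered protocadherins. Loxl2, an enzyme that crosslinks collagen, Slc25a37, which carries iron into mitochondria, and Entpd4 all had 0% unique words on chromosome 14, so their place in the list cannot be told apart from the copies.

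Among genes with at least 90% unique words, the farthest from a peak in both lists were Frmd3 (186,597 and 209,072 bp), Epha5 (179,261 and 637,981 bp), Syt9 (146,046 and 290,526 bp), Ajap1 (125,006 and 394,545 bp) and Lrrn1 (113,703 and 456,028 bp), named after their values were seen. Epha5 guides axons and Syt9 senses calcium in vesicle release. These start sites had no peak within 100 kb in either list.

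The closed promoters stood more alone on the chromosome than the open ones. The median distance to the start site of another protein-coding gene was 42,092 bp, against 15,391 bp for the open CpG-rich genes. A start site of another gene lay within 1 kb in 55 of 1,306 (4.21%), against 1,982 of 7,974 (24.9%), and one on the opposite strand in 49 (3.75%), against 1,836 of 7,974. Since a peak at either of 2 neighbouring start sites within 1 kb can keep both out, the rule itself lowers this share. The genes were longer, with a median of 32,661 bp against 25,398 bp, and had fewer exons, 7 against 9.5. The 627 CpG-rich genes with a peak in biosample 1 alone were longer still (37,094 bp), so length was not particular to the closed promoters. Their median distance to another start site was 29,419 bp, and 7.34% had one within 1 kb. A single exon was found in 117 (8.96%) of the 1,306 genes against 215 (2.70%) of the open ones, and 1 start site in 584 (44.7%) against 29.9%. More start sites give more windows in which a peak can fall, so this share too is tied to the rule.

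Neighbouring genes were in the list together in 19 runs of at least 3 in the order of all protein-coding genes, 72 genes in all. In 12 runs with 38 genes every promoter had at least 90% unique words. They included Hoxa11, Hoxa13 and Evx1 on chromosome 6 (67.7 kb between the first and last start sites), Hoxb9, Hoxb8 and Hoxb7 on chromosome 11 (15.2 kb), Nkx2-4, Nkx2-2 and Pax1 on chromosome 2 (276 kb) and Dmrt1, Dmrt3 and Dmrt2 on chromosome 19 (167 kb). Longest of these 12 were Vsnl1, Rad51ap2, Fam49a and Mycn on chromosome 12 (1,505 kb) and Scube1, Mpped1, Efcab6 and Sult4a1 on chromosome 15 (381 kb). The longest run of all, 7 genes on chromosome 17, had 6 promoters under the 90% limit. By chromosome, the share of CpG-rich genes without a peak ranged from 8.02% on chromosome 16 to 19.1% on chromosome 14, where runs of repeated promoters lie.

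Consensus matches of transcription factors were counted in the 1000 bp around the start site on both strands, as a description. The ETS core CCGGAAG was found in 12.6% of the 1,306 promoters and 35.5% of those open in both lists, with 19.6% of all 20,698 promoters. The NRF1 consensus was found in 7.43% and 19.7% (9.18% of all), AANATGGCG, of YY1, in 3.52% and 13.1% (6.27%), TGACGTCA, the cyclic AMP response element (CRE), in 2.22% and 5.64% (3.35%), and the THAP11 consensus in 1 of 1,306 and 303 of 7,974 (2.04%). The factors that bind these letters are known from many genes used in most cells. All 5 matches had a lower share at the closed promoters than at those open in both lists, with intervals that do not overlap. The 627 CpG-rich promoters with a peak in biosample 1 alone had low shares too, 17.4% for ETS, 7.97% for NRF1, 4.63% for YY1 and 0.319% for THAP11, so these low shares were not particular to the closed promoters. Their CRE share was 5.58%. Within CpG ratios of 0.7 to 0.8 the values were alike, with 11.7% and 35.4% for ETS, 24 of 403 and 437 of 2,422 for NRF1 and 3.72% and 11.9% for YY1.

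Other matches were nearer to each other, with 1 exception. GGGCGG, of SP and KLF factors, was found in 91.1% and 92.1% (61.8% of all promoters), CCAAT in 60.9% and 65.7% (70.2%), and TATAAA in 18.5% of both (31.9%). CACGTG, the E-box, was found in 20.7% and 23.1% (17.2%), TTNCCGCC, of E2F, in 18.3% and 21.9% (12.9%), and the repeat GAGAGAGA in 10.5% and 9.62% (13.3%). The CCAAT and E2F shares were lower at the closed promoters, with intervals that do not overlap. Within CpG ratios of 0.7 to 0.8 the E2F intervals overlapped, with 73 of 403 closed and 460 of 2,422 open promoters. The CCAAT intervals stayed apart there, with 60.8% and 68.4%. Of the 627 CpG-rich promoters with a peak in biosample 1 alone, 333 had CCAAT (53.1%) and 113 had E2F. The low CCAAT and E2F shares were thus not particular to the closed promoters. The E2F and SP/KLF letters overlap in part, so 1 stretch can match both. The consensus of RE1, the silencer that REST binds at neuronal genes, was the exception, with 7 of the 1,306 promoters (0.536%), 6 of the 627 with a peak in biosample 1 alone (0.957%), 3 of the 7,974 open in both lists (0.0376%) and 29 of all 20,698. The 7 were Akain1, Barhl1, Calb1, Fam163b, Grin1, Hrh3 and Mmp24. Of these Grin1, Hrh3 (a histamine receptor) and Calb1 (a calcium buffer of neurons) are best known from the brain.

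Matches at the 27 closed germ-line genes were set against the open ones of the same class. CACGTG was found in 18 of 27 (66.7%, 47.8 to 81.4), against 8 of the 29 germ-line genes open in both lists (27.6%, 14.7 to 45.7), and the NRF1 consensus in 12 (44.4%, 27.6 to 62.7) against 6 (20.7%, 9.85 to 38.4). The intervals of the E-box do not overlap, and those of NRF1 do. The 82 homeobox genes had the E-box in 23.2% and NRF1 in 3.66%. A match is no evidence of binding, and the intervals cover counting error over genes, which are not replicates.

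**Figure D5:**
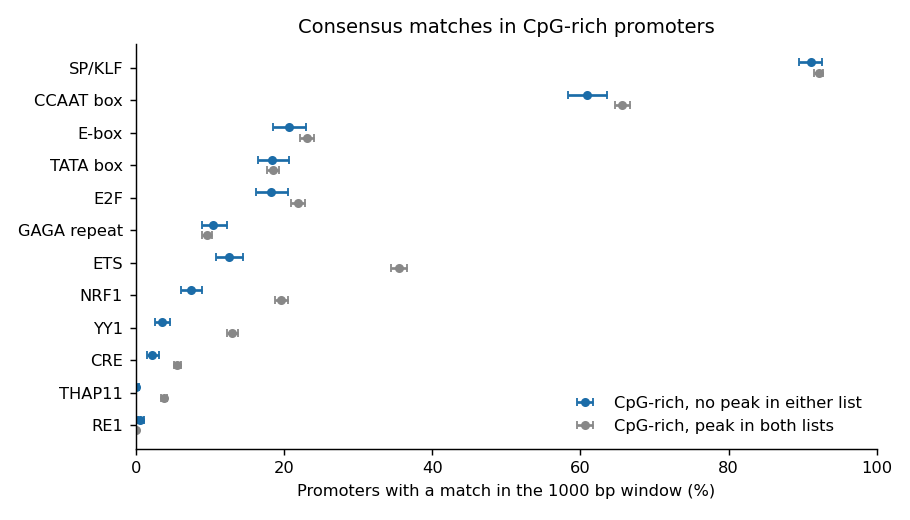
Share of promoters with at least 1 consensus match in the 1000 bp around the most upstream start site (x axis, %), for the 1,306 CpG-rich genes without a peak (blue) and the 7,974 with a peak in both lists (grey). Bars are 95% Wilson intervals for counting error. The ETS (12.6% and 35.5%), NRF1 (7.43% and 19.7%) and YY1 (3.52% and 13.1%) points lie apart, and the SP/KLF and TATA box points lie together.

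The choice of transcripts bears on the list. The start sites were those of coding transcripts, and 180 of the 1,306 genes had a peak within 1 kb of the start of a non-coding transcript of the same gene, 178 in biosample 1 and 83 in biosample 2. For the other 1,126 genes no annotated start site of the gene had a peak in either list.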

How the data were processed

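DNase-seq lists of 3T3-L1 cells were used. Per the labels, the authors called 1 list of peaks and 1 of hotspots for each biosample on mm10 from an alignment pooled over its 2 libraries; the sources used here give no aligner or caller. The deposited peaks carry a score up to 150 of unstated definition, and the deposited hotspots a −log10 q value capped at 100. Read depth was unknown, so weak sites may be missed, and Wilson intervals (95%) cover counting error over genes. No test was run, because 1 list per biosample gives no replicate spread.

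Start sites came from coding transcripts of GENCODE M21 and sequence from GRCm38.p6 (Python 3.11.15, numpy 2.4.6, pandas 2.3.3). The CpG ratio is the count of CG times the length over the product of the C and G counts, in 500 bp on each side of the start site. A CpG-rich stretch joins 200-bp windows, moved by 10 bp, with a ratio of at least 0.6 and at least 50% GC. Distances run to the peak edge. Words of 31 bases were counted on both strands of chromosomes 1 to 19, X and Y, and a low share was under 90%. The functions were tested on simulated data.

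The genes, classes and motifs were chosen with earlier results of these data known. Classes follow gene symbols. Named were, of each class with at least 3 members, the 4 with the highest ratio, then the 10 with the highest ratio, the 10 farthest from any peak, those nearest each threshold, those with hotspots and the longest runs; further names were chosen after their values were seen. Alternatives were other windows, ratios, start sites, lists and filters. Some genes and sequences that these rules give are not reported here.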

Additional observations from a re-analysis of the deposited data

How the results depend on the processing

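The share of CpG-rich genes without a peak, 13.2%, was 14.8% with a window of 500 bp and 10.6% with 2000 bp, 14.8% with a CpG ratio of at least 0.5 and 10.1% (605 genes) with 0.75, 19.5% with the biosample 2 list without the other, 15.7% with the stronger 50% of each list and 14.9% with the most upstream start site only. It moved by less than its interval with the biosample 1 list without the other (1,307 genes, 1,306 shared), with hotspots in place of peaks (1,280 genes, 1,279 shared), with promoters of at least 90% unique words and with the highest ratio over all start sites. Homeobox genes had 56.8% with 2000 bp and 78.4% with the biosample 2 list, and germ-line genes 21.4% with a ratio of at least 0.75. With 2000 bp potassium channels had 50%, ligand-gated channels 45.8% and transmitter and peptide receptors 30.8%, with a ratio of at least 0.75 forkhead genes had 20.8%, and sodium, calcium and HCN channels had 62.5% with the biosample 2 list and 58.3% with the stronger 50% of peaks. Genes with a hotspot in the window were 0% in both lists with 500 bp, 21.1% and 6.97% with 2000 bp, and 0.536% and 0% where at least 150 bp of hotspot was required. The median distance to a peak was 4,870 and 12,496 bp from the most upstream start site and 9,538 and 29,230 bp to the stronger 50% of peaks. Counting the starts of non-coding transcripts, added after seeing the data, left 1,126 genes. The unknown depth and the shorter biosample 2 list limit every absence of a peak, since a weak site can be missed. No paired analysis was possible because no result comes from a test and each biosample has 1 pooled list.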
